A study of Mus musculus with 3 samples.

Results

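Homologous recombination repairs broken DNA by copying an intact sister molecule, and the Fanconi anaemia pathway clears crosslinks that block replication forks. In recombination the MRE11 complex and its helpers resect a broken end, and BRCA1, PALB2 and BRCA2 then prepare the exposed strand to pair with the sister molecule. The checkpoint kinases ATM and ATR sense the damage and hold the cell cycle through CHK2 and CHK1. Many of these genes are most active in dividing cells, since a sister molecule is present only after replication.

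The transcripts of 38 such genes were examined, chosen by name and matched by gene ID, among 16621 genes with an estimate in at least 1 library. All 38 had at least 10 counts in at least 1 library, and all 38 entered the test. The cells were tail tendon derived stem cells, colony-forming progenitors that were isolated from tendon and grown in culture. They came from C57BL/6 mice aged 10 weeks and were collected untreated, when confluent, at passage 4. There was 1 library from wild-type cells (WT) and 2 libraries from cells with the ΔF508 mutation of the chloride channel gene Cftr (DF508), a deletion frequent in cystic fibrosis patients. No transgene is named. Whether the pair of DF508 libraries represents different mice or dishes is not stated, so p-values reflect the spread between the sequenced samples alone, and that spread may be technical. With a single WT library, culture and library preparation cannot be told apart from genotype, and the model takes its spread from the DF508 pair.

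The libraries held 5298326 counts in WT and 5241826 and 5246886 in DF508 replicates 1 and 2. A count is RSEM's estimate of the reads from a gene, and 1 count equals 0.189 to 0.191 CPM (counts scaled to a common library total). All 9 tendon fibroblast markers were detected, with Col1a1 at 57888 to 70935 counts and the tendon transcription factor Scx at 11 to 16 counts. Of the 4 endothelial markers Pecam1 and Cdh5 were at 0 in every library. Kdr had 1, 0 and 1 counts in WT and DF508 replicates 1 and 2, and Tek had 77, 69 and 65. Of the 4 epithelial markers Cdh1 and Krt18 were at 0 in every library. In the same order Epcam had 0, 3 and 0 counts and Krt8 had 0, 1 and 3. The summed level of 9 myeloid markers was 85.9 CPM in WT, 132 CPM in DF508 replicate 1 and 604 CPM in DF508 replicate 2, with none of the 9 at 0. The summed level of 6 smooth muscle and pericyte markers was 452 CPM in WT and 1171 and 1118 CPM in DF508, or 2.59-fold and 2.47-fold. Among them the actin Acta2, which shares reads, rose from 411 CPM to 1072 and 1020.5 CPM (2.47-fold, edgeR adjusted p = 0.00178) and the actin-binding Cnn1 from 15.5 CPM to 57.4 and 56.2 CPM (3.56-fold, edgeR adjusted p = 0.00335). Rgs5 of that list was at 0 in WT. Of the tendon markers Dcn, a matrix proteoglycan, rose from 725 CPM to 1031 and 1110 CPM (1.43-fold, edgeR adjusted p = 0.0417). The other 8 tendon markers did not pass, and of all 9 the fitted log2 fold change was above 0 in 5 and below 0 in 4. Mkx had 83.6 CPM in WT and 70.8 and 73.2 CPM in DF508, and Thbs4 had 20748, 18699 and 19880 CPM. What part these marker groups have in the differences below was not tested. The summed level of 16 proliferation markers was 699, 1063 and 1217 CPM in the same order. In bulk RNA a change in the number of cells of a type and a change in RNA per cell cannot be told apart.

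Promoter windows were examined because genes of this kind are known to be switched on together in the cell cycle, through the factors E2F and NF-Y. RefSeq's GRCm38.p6 table holds 34 windows for 31 of the 38 genes, each of 300 bases, from 250 before the transcription start to 50 after. Fancd2, Rad54b, Xrcc2, Rbbp8, Nbn, Rad50 and Exo1 are not in it. The motifs searched, on both strands, were TTCCCGC, TTTGGCGC and TTTCGCGC for E2F, CCAAT for NF-Y and TTTGAA for the cell cycle element CHR; none of these words contains another. Below are the window of Topbp1, which passed the test, those of Clspn, Rad51ap1 and Fancb, which hold both an E2F and an NF-Y word and were at least 1.5-fold above WT in both DF508 libraries, and that of Atm, which holds both words and had almost the same level in every library. Each is written 5′ to 3′ on the strand of the gene, and capitals mark the motif matches, which appear as the reverse complement where the word is on the other strand.
Topbp1 promoter, chr9:103305077-103305376, plus strand: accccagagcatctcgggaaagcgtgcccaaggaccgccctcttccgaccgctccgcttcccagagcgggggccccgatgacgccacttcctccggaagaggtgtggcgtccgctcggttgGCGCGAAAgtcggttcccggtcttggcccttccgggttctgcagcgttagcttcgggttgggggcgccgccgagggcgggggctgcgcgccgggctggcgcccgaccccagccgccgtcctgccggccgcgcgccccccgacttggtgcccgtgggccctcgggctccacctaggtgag
Clspn promoter, chr4:126556730-126557029, plus strand: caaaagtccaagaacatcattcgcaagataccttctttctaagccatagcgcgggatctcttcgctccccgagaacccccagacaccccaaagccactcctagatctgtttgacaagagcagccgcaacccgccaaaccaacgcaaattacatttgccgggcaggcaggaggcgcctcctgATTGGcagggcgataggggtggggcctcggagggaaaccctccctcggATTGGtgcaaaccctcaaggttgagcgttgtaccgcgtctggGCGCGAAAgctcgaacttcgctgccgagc
Rad51ap1 promoter, chr6:126939538-126939837, minus strand: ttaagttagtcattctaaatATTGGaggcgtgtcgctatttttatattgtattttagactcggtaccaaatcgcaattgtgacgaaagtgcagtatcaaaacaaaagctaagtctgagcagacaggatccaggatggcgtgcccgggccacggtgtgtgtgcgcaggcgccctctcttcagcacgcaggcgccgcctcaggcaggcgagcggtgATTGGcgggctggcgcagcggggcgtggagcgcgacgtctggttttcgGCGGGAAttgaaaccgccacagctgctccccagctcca
Fancb promoter, chrX:164980342-164980641, plus strand: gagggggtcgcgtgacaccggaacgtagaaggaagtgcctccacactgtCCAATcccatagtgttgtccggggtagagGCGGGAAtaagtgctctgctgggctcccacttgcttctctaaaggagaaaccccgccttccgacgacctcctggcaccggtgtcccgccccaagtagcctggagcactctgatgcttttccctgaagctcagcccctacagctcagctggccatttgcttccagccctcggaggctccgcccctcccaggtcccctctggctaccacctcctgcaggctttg
Atm promoter, chr9:53536622-53536921, minus strand: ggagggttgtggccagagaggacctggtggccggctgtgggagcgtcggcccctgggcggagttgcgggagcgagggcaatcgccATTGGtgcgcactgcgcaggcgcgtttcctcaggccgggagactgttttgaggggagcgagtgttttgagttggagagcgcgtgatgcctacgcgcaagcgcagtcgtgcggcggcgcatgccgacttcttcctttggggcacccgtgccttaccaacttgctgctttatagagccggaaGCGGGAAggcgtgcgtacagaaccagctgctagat
In Topbp1 the sole match is an E2F word that begins 129 bases before the start. Clspn has NF-Y words 69 and 21 bases before the start and an E2F word 21 bases after it. In Rad51ap1 NF-Y words begin 230 and 36 bases before the start and an E2F word 12 bases after it. Fancb carries an NF-Y word 201 and an E2F word 172 bases before the start, and Atm an NF-Y word 165 bases before and an E2F word 15 bases after it. Among all windows of the 38 genes, 15 of 34 (44.1%) held an E2F word, against 9.33% of 13046 windows of the genes tested and 5.33% of all 32851 windows. An NF-Y word stood in 21 of 34 (61.8%), against 37.5% and 37.4%. The CHR word was found in 2 of 34 (5.88%), against 12.2% and 17.9%. An E2F and an NF-Y word were both present in 7 of 34 windows (20.6%), against 3.5% and 1.96%. Of these 7, those of Chek2, Fancm and Rmi1, genes not 1.5-fold above WT in both DF508 libraries, are not shown above. In the 11 windows of genes at least 1.5-fold above WT in both DF508 libraries, 6 held an E2F word (54.5%), and in the other 23 windows 9 did (39.1%). Both words stood in 3 of the 11 windows (27.3%) and in 4 of the 23 (17.4%). The 11 and 23 windows belong to 10 and 21 genes, so windows are not independent. Rad54l, Rad51c and Rmi1 have more than a single window each, and those of Rad54l nearly coincide. The median GC content was 59.8% in the windows of the 38 genes and 60.7% in those of the genes tested. Such matches are a description of letters and not of binding.

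The question was which of these transcripts differ between mutant and wild-type tendon cells. Most of the 38 genes had higher values in DF508 than in WT, and 1 of them passed the test. This was Topbp1, the protein that activates ATR at stalled forks, which rose 1.96-fold. Scaled to library totals, 34 of 38 (89.5%) were above WT in both DF508 libraries, where 43.2% of 12930 genes with at least 10 counts were. A single gene, the ubiquitin ligase Fancl, was below WT in both, a position that 29.8% of all genes held. The other 3, Xrcc3, Fancf and Mus81, had WT between the DF508 libraries. At least 1.5-fold above WT in both libraries were 12 of 38, where 5.64% of all genes were, and none of the 38 was 1.5-fold below in both (2.52% of all genes). Among genes with a mean level in the range of these 38 (2.47 to 69.0 CPM), the background shares were 42.7% and 5.53%.

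In the model across all genes (edgeR's quasi-likelihood test, Benjamini-Hochberg adjustment over 12888 genes), 1 of 38 passed the threshold of 0.05, against 1.39% of all genes in either direction (0.489% higher and 0.9% lower). An unadjusted p under 0.05 with a higher level was found in 9 of 38, against 5.86% of all genes. These were Topbp1, Clspn, Exo1, Brca1, Slx4, Nbn, Chek1, Blm and Rad51ap1, and none of the 38 was lower at that level (6.08% of all genes). The median fitted log2 fold change was 0.42 over the 38 genes and 0.01 over all genes tested, with 34 of 38 above 0 against 50.9% of all genes. Against WT alone, on library totals, the median log2 difference of the 38 genes was 0.52 for DF508 replicate 1 and 0.32 for replicate 2. All genes with at least 10 counts had medians of 0.04 and 0.05. These comparisons share the WT library.

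**Figure D1:**
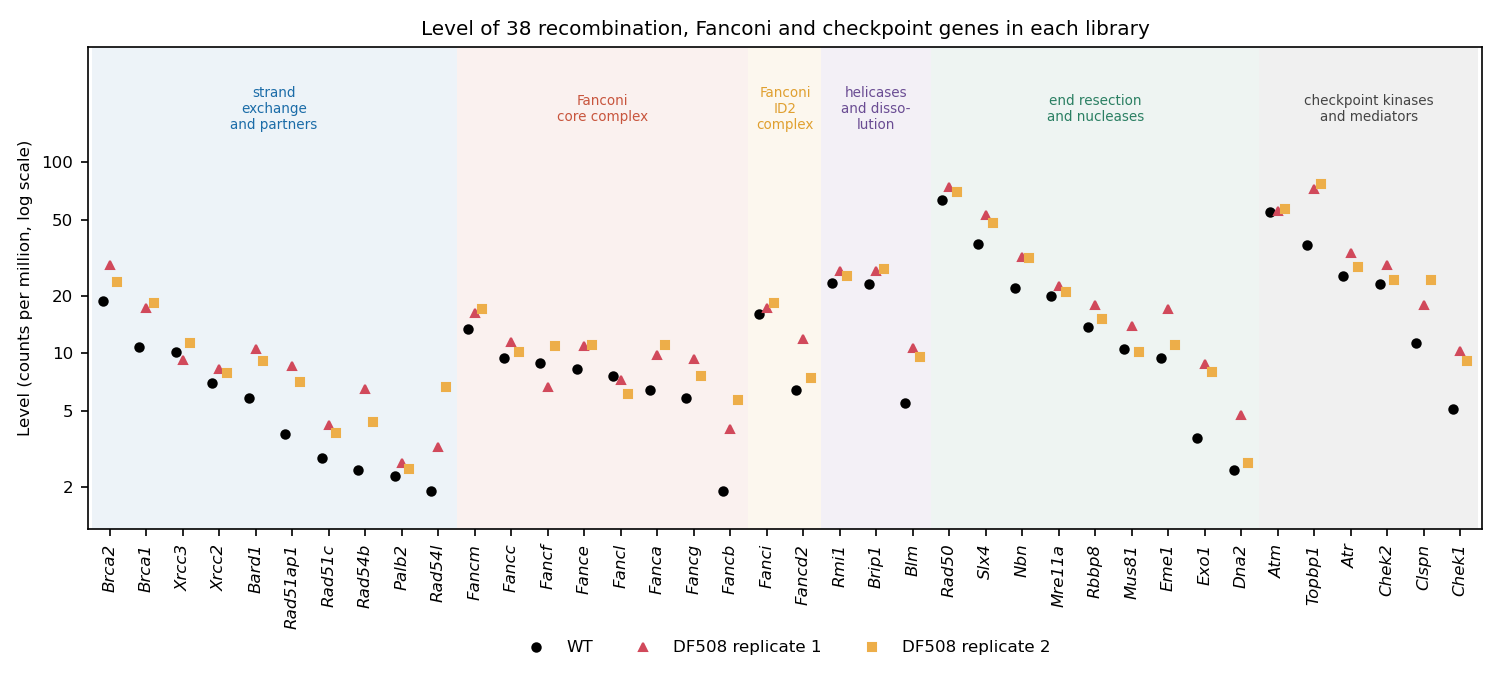
Level of each gene in CPM (log axis) in the 3 libraries, grouped by role and ordered within a role by the WT level; black circles are WT, triangles DF508 replicate 1 and squares DF508 replicate 2. The black circle is the lowest point for 34 of the 38 genes, and Topbp1 shows a wide gap between WT (36.8 CPM) and DF508 (72.7 and 76.4 CPM).

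The checkpoint genes held the one call. Topbp1 (gene ID 235559) had 195 counts in WT and 381 and 401 counts in DF508, or 36.8, 72.7 and 76.4 CPM. Both DF508 libraries lay far above WT and close to each other, at 74.6 ± 2.65 CPM (SD, n = 2). The gene rose 1.96-fold (log2 fold change 0.97 ± 0.13 SE, edgeR adjusted p = 0.0112), higher in 2 of 2 DF508 libraries. It was the 11th of 63 genes past the threshold in that direction when ordered by adjusted p. Counting error alone gives an exact 95% Poisson interval of 1.73 to 2.38 for its ratio of 2.03 on library totals. Per length, Topbp1 ranked 4th of the 38 genes in WT by FPKM (7.15 FPKM, fragments scaled to transcript length and library size) and 2nd and 1st in the DF508 libraries (14.1 and 14.8 FPKM). The call was lost without a filter on low counts (adjusted p = 0.662), on library totals without TMM factors (0.441) and in limma on log2 FPKM (0.493 and 0.499), all settings in which no gene was called higher. Over its 11 alternatives the adjusted p ran from 2.12e-07 to 0.662. In the other 7 alternatives it was the only one of the 38 genes past the threshold. The share of all genes called higher there was 0.512% with DESeq2 size factors, 0.232% with a filter of 10 counts, 0.574% with a mean of at least 50 counts and 0.45% without genes that share reads. It was 0.403% in limma-voom, 1.41% in edgeR's likelihood ratio test and 0.412% in DESeq2's Wald test, which gave an adjusted p for 3 of the 38 genes.

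Clspn, the adaptor through which ATR activates CHK1, had 11.3 CPM in WT and 17.9 and 24.2 CPM in DF508. Both were above WT, but the DF508 libraries were themselves far apart (21.1 ± 4.44 CPM, SD, n = 2). Its fitted fold was 1.8 and it did not pass (log2 fold change 0.85 ± 0.26 SE, edgeR adjusted p = 0.214). Chek1, the kinase downstream of ATR, had 27.0 counts in WT and 53.6 and 47.5 in DF508, or 5.1, 10.2 and 9.05 CPM. Its counts were not whole, so some of its reads also fit elsewhere and its level is uncertain, as for Atm and Chek2. At 1.85-fold it did not pass (edgeR adjusted p = 0.344). Its level and that of Clspn were each higher in 2 of 2 DF508 libraries.

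The kinases at the top of the cascade had smaller fitted differences, although no difference between genes was tested. Atr had 25.3 CPM in WT and 33.4 and 28.2 CPM in DF508, a fitted 1.18-fold difference (edgeR adjusted p = 0.696). Atm, the kinase that responds to broken ends, had 54.8, 55.1 and 56.5 CPM, the narrowest range relative to level among the 38 genes. Its log2 fold change was -0.01 ± 0.12 (SE, edgeR adjusted p = 0.98), and the counting interval of the ratio was 0.885 to 1.18. Chek2, the kinase that ATM activates, had 22.9, 28.8 and 24.1 CPM (1.12-fold, edgeR adjusted p = 0.822). The summed level of all 6 checkpoint genes was 156 CPM in WT and 218 and 219 CPM in DF508. Their median log2 fold change was 0.54, with 1 of 6 past the threshold and 3 at least 1.5-fold above WT in both libraries.

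Among the 10 strand exchange genes and partners none passed the test, 2 had an unadjusted p under 0.05 and 5 were at least 1.5-fold above WT in both DF508 libraries. Brca1 (gene ID 12189), which acts early in recombination and forms a ubiquitin ligase with BARD1, had 57 counts in WT and 90 and 96 counts in DF508. That is 10.8, 17.2 and 18.3 CPM, with the DF508 libraries close together and both above WT. The fitted fold was 1.6 (log2 fold change 0.68 ± 0.24 SE, edgeR adjusted p = 0.277), and counting error alone gives a ratio of 1.65 with an interval of 1.22 to 2.26. Its partner Bard1, which shares reads, had 5.82, 10.5 and 9.14 CPM. By FPKM Bard1 stood at 0.663, 0.746 and 0.612 of the Brca1 level in the 3 libraries, a share that varied more between the DF508 libraries than from WT to either.

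Brca2 (gene ID 12190), which acts on resected ends, had 99 counts in WT and 152 and 124 in DF508. Its levels of 18.7, 29.0 and 23.6 CPM put both DF508 libraries above WT, by 1.55-fold and 1.26-fold, and it did not pass (log2 fold change 0.45 ± 0.22 SE, edgeR adjusted p = 0.466). Palb2, which bridges BRCA1 and BRCA2, was near the lower end at 12, 14 and 13 counts. At this depth its ratio of 1.14 had a counting interval of 0.557 to 2.46, so a difference of the size seen in Brca1 was not detectable.

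The genes acting in strand pairing had large ratios on few counts. Rad51ap1, which stimulates strand pairing, had 20 counts in WT and 45 and 37 in DF508, a fitted 2-fold difference (log2 fold change 1.00 ± 0.41 SE, edgeR adjusted p = 0.369). Both DF508 libraries were above WT, at 8.58 and 7.05 CPM against 3.77 CPM. Rad54l, a motor protein that remodels the joint with the sister molecule, had 10 counts in WT and 17 and 35 in DF508. DF508 replicate 2 held 35 counts against 17 in replicate 1, and the log2 fold change of 1.34 ± 0.66 (SE), the largest of the 38, did not pass (edgeR adjusted p = 0.477). Its relative Rad54b had 13, 34 and 23 counts (log2 fold change 1.10 ± 0.54 SE, edgeR adjusted p = 0.478), with the order of the DF508 libraries turned. In both, WT was the lowest library.

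Rad51c, Xrcc2 and Xrcc3, which belong to one protein family that assists recombination, had smaller differences from WT. Rad51c had 15, 22 and 20 counts, and Xrcc2, which shares reads, 37, 43.4 and 41.5 counts. Xrcc3, which also shares reads, had 53.6 counts in WT, 48 in DF508 replicate 1 and 59.2 in replicate 2, so WT lay between them (log2 fold change -0.04 ± 0.29 SE, edgeR adjusted p = 0.976).

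In the Fanconi core complex, the ubiquitin ligase that acts at crosslinked DNA, none of 8 genes passed. None had an unadjusted p under 0.05 in edgeR, and the median log2 fold change was 0.31. Fancb, on the X chromosome, had 10 counts in WT and 21 and 30 in DF508, or 1.89, 4.01 and 5.72 CPM. Both DF508 libraries were over 2-fold above WT, with a log2 fold change of 1.31 ± 0.59 (SE, edgeR adjusted p = 0.427) and a counting interval of 1.29 to 5.69 for the ratio. Fanca, a core subunit often mutated in the disease, had 6.42, 9.73 and 11.1 CPM, and Fancg, its direct partner, 5.85, 9.35 and 7.62 CPM. Fance, the adaptor for the substrate, had 8.3, 10.9 and 11.1 CPM, and the translocase Fancm 13.4, 16.2 and 17.0 CPM. For these 4 genes WT was again the lowest library. Fancc had 9.44, 11.4 and 10.1 CPM, with replicate 2 close to WT.

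In Fancl and Fancf WT was not the lowest library. Fancl, the catalytic subunit, had 40 counts in WT and 38 and 32 in DF508, the lowest log2 fold change of the 38 (-0.22 ± 0.35 SE, edgeR adjusted p = 0.875). Fancf, an assembly factor, had 47 counts in WT, 35 in DF508 replicate 1 and 57 in replicate 2 (log2 fold change -0.06 ± 0.36 SE, edgeR adjusted p = 0.974). Its DF508 libraries lay on opposite sides of WT. By FPKM Fancl had 4.26 in WT and 4.43 and 3.56 in DF508, so on that scale WT lay between the DF508 libraries, the only gene of the 38 whose side of WT differed between the scales. It was 6.76 times as abundant as Fancb in WT, and 3.31 and 1.86 times in the DF508 libraries.

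The targets of that ligase are Fancd2 and Fanci, which clamp onto DNA as a pair. Fancd2 had 34 counts in WT, 62 in DF508 replicate 1 and 39 in replicate 2, or 6.42, 11.8 and 7.43 CPM. Replicate 1 was well above WT and replicate 2 close to it (log2 fold change 0.54 ± 0.38 SE, edgeR adjusted p = 0.655). Fanci had 85, 90 and 96 counts, almost level across the libraries (log2 fold change 0.10 ± 0.22 SE, edgeR adjusted p = 0.912). The FPKM ratio of Fancd2 to Fanci was 0.386 in WT, 0.667 in DF508 replicate 1 and 0.392 in replicate 2.

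Blm, the helicase that dissolves crossed-over molecules, had 5.47 CPM in WT and 10.7 and 9.53 CPM in DF508, both well above WT. It did not pass at 1.79-fold (edgeR adjusted p = 0.357). Its cofactor Rmi1 had 23.2, 26.9 and 25.3 CPM, so the FPKM ratio of Blm to Rmi1 was 0.181 in WT and 0.306 and 0.292 in DF508. Brip1, a helicase that binds BRCA1 and shares reads, had 22.9, 26.8 and 27.6 CPM.

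Of the 9 resection factors and nucleases none passed, and 3 had an unadjusted p under 0.05. Exo1, the exonuclease that extends resection, had 19 counts in WT and 46 and 42 in DF508, over 2-fold above WT in both libraries. Its level went from 3.59 CPM to 8.39 ± 0.545 CPM (SD, n = 2), and it did not pass (log2 fold change 1.18 ± 0.39 SE, edgeR adjusted p = 0.25). Dna2, which resects in parallel with EXO1, had 13 counts in WT, 25 in DF508 replicate 1 and 14 in replicate 2. Rbbp8, whose product starts resection, had 13.8, 17.9 and 15.1 CPM.

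Subunits of the complex that first binds broken ends were among the most abundant of these transcripts per length. Rad50, its structural subunit, ranked 1st, 1st and 2nd of the 38 genes by FPKM (12.2, 14.3 and 13.4). It had 63.4 CPM in WT and 74.0 and 69.6 CPM in DF508 (1.1-fold, edgeR adjusted p = 0.725). Nbn, which recruits ATM, had 21.9, 31.7 and 31.4 CPM, with the DF508 libraries nearly equal, and did not pass (log2 fold change 0.48 ± 0.18 SE, edgeR adjusted p = 0.323). The nuclease Mre11a had 19.8, 22.5 and 20.8 CPM (log2 fold change 0.08 ± 0.21 SE, edgeR adjusted p = 0.923). By FPKM Nbn stood at 0.719 of Rad50 in WT and at 0.892 and 0.943 in DF508, and Mre11a at 0.534, 0.519 and 0.51.

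Of the nucleases that cut joined molecules, the scaffold Slx4 had 198 counts in WT and 278 and 252 counts in DF508 (1.31-fold, edgeR adjusted p = 0.303). Mus81 had 10.6, 13.9 and 10.1 CPM, with WT between the DF508 libraries. Its partner Eme1 had 9.44 CPM in WT, 17.0 CPM in replicate 1 and 11.1 CPM in replicate 2. The FPKM ratio of Eme1 to Mus81 was 0.802, 1.09 and 0.982.

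**Figure D2:**
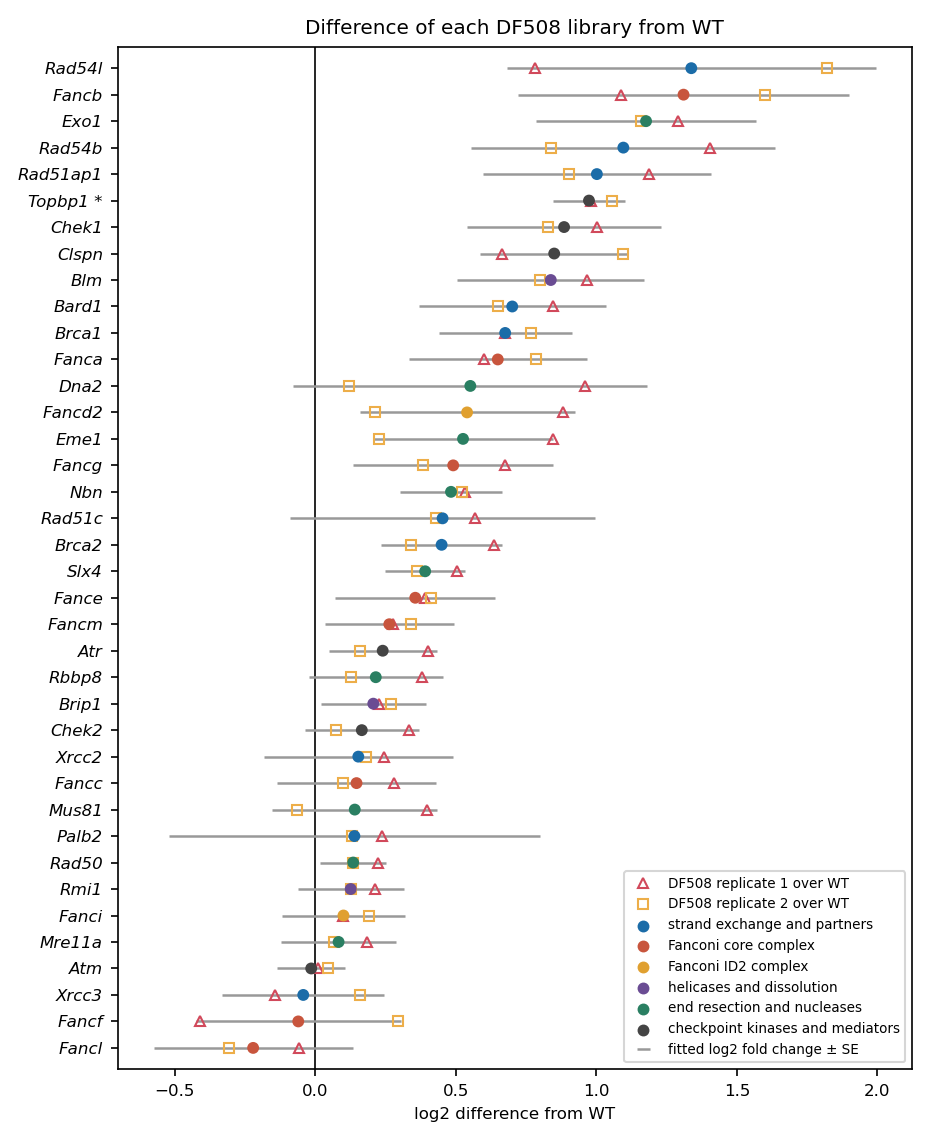
Log2 difference of each gene from WT, ordered by the fitted fold change. Filled circles with bars are the edgeR estimate ± SE, coloured by role, and open triangles and squares are DF508 replicates 1 and 2 over WT on library totals; the asterisk marks Topbp1, the one gene past the threshold. Genes with few counts have wide bars, such as Rad54l (0.66) and Fancb (0.59), and Topbp1 a narrow one (0.13).

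The spread between the DF508 libraries was set beside that of other genes. The median absolute log2 difference between replicates 1 and 2 was 0.18 over the 38 genes and 0.18 over all genes in their range of levels. At least 1.5-fold apart were 5 of 38 genes, namely Rad54l, Fancf, Fancd2, Dna2 and Eme1, against 10.5% of all genes in that range. Replicate 1 was the higher of the pair in 25 of 38 genes and replicate 2 in 13. The myeloid markers were higher in replicate 2 (604 against 132 CPM). Without replicate 2 the median log2 difference of the 38 genes from WT was 0.47, and without replicate 1 it was 0.26. Both are differences of TMM-scaled log2 CPM with a small count added, and not fitted values.

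Genes with few counts had the larger fitted differences. The 17 genes with a mean under 50 counts had a median log2 fold change of 0.65, and 9 of them were at least 1.5-fold above WT in both libraries. The 10 genes with 50 to 100 counts had a median of 0.24, and the 11 with at least 100 counts 0.21, with 2 and 1 genes past that fold. For all genes tested the medians in these classes were 0.10, 0.02 and -0.01. The share of all genes past the fold was not computed by class, so the counts past it have no background here. Topbp1 was the gene of the last class past the fold.

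**Figure D3:**
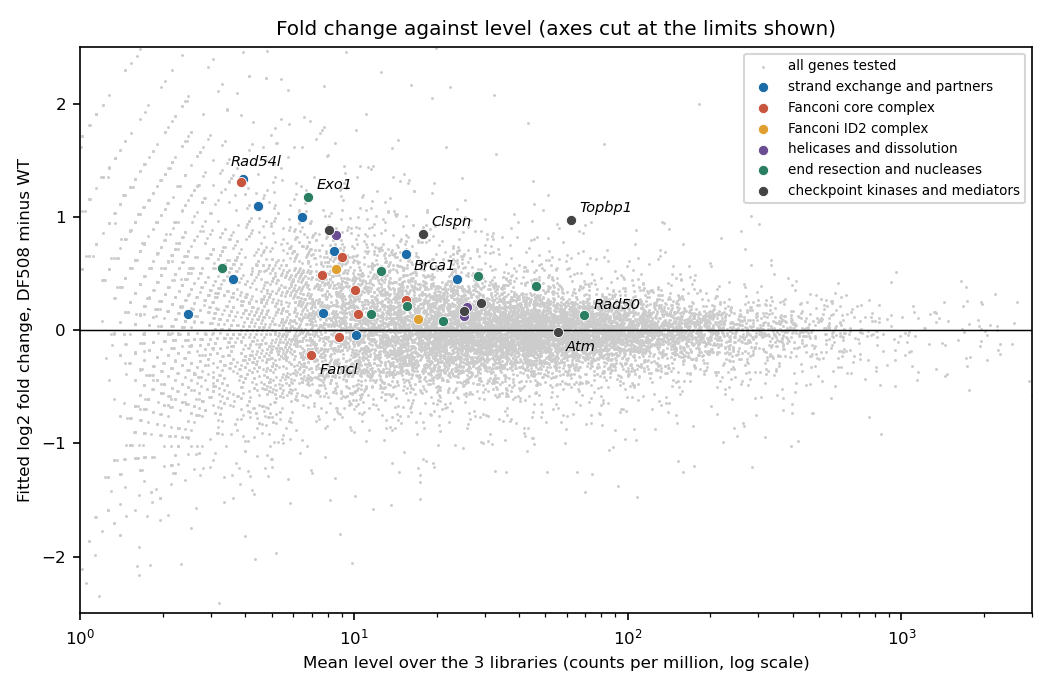
Fitted log2 fold change of DF508 over WT against the mean level in CPM (log axis), with all genes tested in grey and the 38 genes coloured by role. The axes leave out genes beyond their limits. Most coloured points lie above 0, Topbp1 (0.97) lies above most grey points at its level, and Atm (-0.01) and Rad50 (0.13) lie near 0 at a like level.

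Other genes of the same pathways, from lists with no member in common with the 38, had lower medians, and no list was tested against another. Of 28 other recombination genes none passed, 6 had an unadjusted p under 0.05 with a higher level and none with a lower one, and the median log2 fold change was 0.18. The RPA subunit Rpa1, which coats exposed strands, had 68.7 CPM in WT and 93.1 and 90.1 CPM in DF508 (edgeR adjusted p = 0.206). Sfr1, a cofactor of strand exchange and the most abundant of the list by CPM, had 174, 164 and 176 CPM. Of 12 other Fanconi genes none passed (median 0.10, 1 with an unadjusted p under 0.05), with the deubiquitinase cofactor Wdr48 at 67.6, 64.9 and 64.2 CPM and the polymerase Rev3l at 64.0, 74.0 and 70.7 CPM. Of 21 other checkpoint and break signalling genes none passed (median 0.13, 5 higher with an unadjusted p under 0.05). Among these Mdc1, the scaffold at breaks, which shares reads, had 71.3, 106 and 95.8 CPM and Trp53bp1, which holds back resection, 117, 134 and 130 CPM.

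Repair pathways that need no sister molecule were listed for comparison. The median log2 fold change was -0.04 for 10 end joining genes, 0.01 for 14 nucleotide excision genes, 0.15 for 7 mismatch genes and 0.29 for 14 base excision genes, and none of these 45 passed. An unadjusted p under 0.05 was found for none of the end joining, nucleotide excision and base excision genes, and for 1 higher and 1 lower mismatch gene. In end joining, where broken ends are sealed directly, the kinase Prkdc had 28.9, 33.4 and 31.6 CPM and the scaffold Aplf, which shares reads, 159, 157 and 172 counts. Of the nucleotide excision genes Ddb1 had 687, 649 and 609 CPM and Rad23b 276, 268 and 260 CPM. The mismatch sensor Msh6 had 24.9, 38.2 and 30.7 CPM and Mlh3, which shares reads, 33.8, 26.6 and 25.0 CPM. In base excision the strand break sensor Parp1 had 55.7, 67.0 and 69.4 CPM and the ligase Lig3 41.1, 52.3 and 44.4 CPM.

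Proliferation markers had several calls. Of 16, 6 rose, none fell and 10 did not pass, against 0.489% of all genes higher and 0.9% lower. An unadjusted p under 0.05 with a higher level was found in 13 of 16, against 5.86% of all genes. The median log2 fold change was 0.72. Mki67, which coats mitotic chromosomes, went from 163 CPM to 288 and 329 CPM (1.84-fold, edgeR adjusted p = 0.0139). The topoisomerase Top2a rose from 87.8 CPM to 155 and 181 CPM (1.85-fold, edgeR adjusted p = 0.0198), and the cyclin Ccna2 from 41.7 CPM to 69.1 and 88.6 CPM (1.83-fold, adjusted p = 0.045). The mitotic kinase Aurkb rose from 7.17 CPM to 17.9 and 20.6 CPM (2.6-fold, edgeR adjusted p = 0.044). The replication genes Mcm3, a helicase subunit, and Rrm2, a reductase subunit, went from 29.1 CPM to 49.03 and 55.1 CPM and from 51.7 CPM to 81.1 and 84.8 CPM (1.74-fold and 1.56-fold, edgeR adjusted p = 0.045 and 0.0429). Like that of Topbp1, these 6 calls were lost without a filter on low counts, on library totals and in limma on log2 FPKM. No gene at all was called higher in those settings. The summed level of the 38 genes was 540 CPM in WT and 730 and 698 CPM in DF508, or 1.35-fold and 1.29-fold. That of the proliferation markers was 1.52-fold and 1.74-fold above WT. The ratio of the first sum to the second was therefore 0.773 in WT and 0.686 and 0.573 in DF508. What part the proliferation markers' difference has in that of the 38 genes was not tested.

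**Figure D4:**
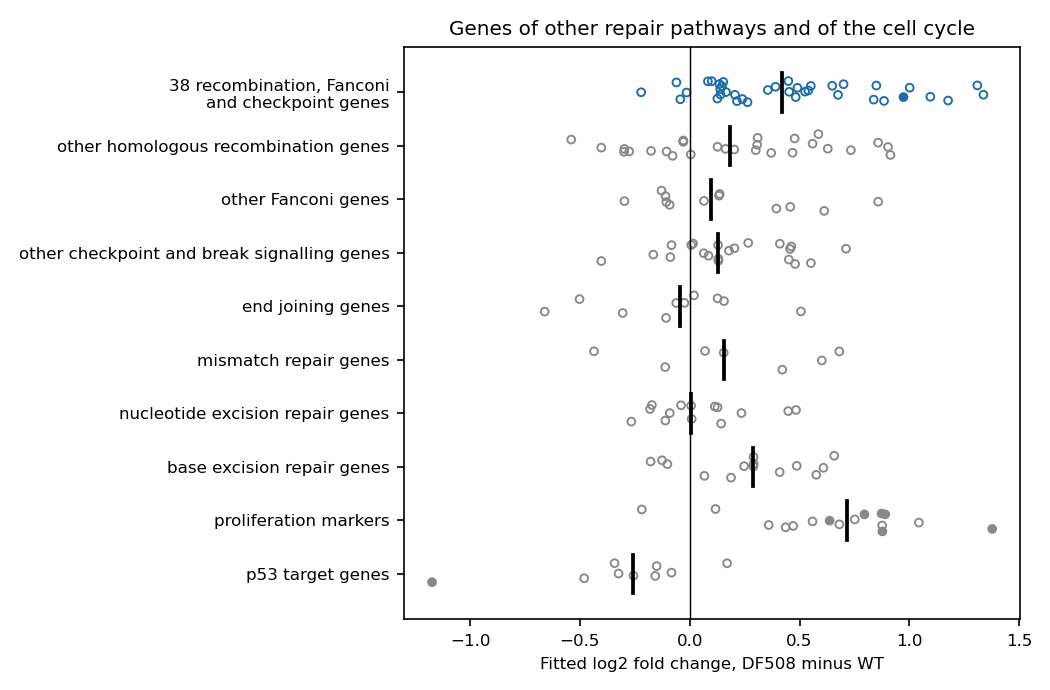
Fitted log2 fold change of every tested gene in the 38-gene set (blue) and in other lists (grey); filled circles passed the threshold, open circles did not, and the black bar is the median of the list. The medians run from -0.26 for p53 target genes to 0.72 for proliferation markers, with the 38 genes at 0.42.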

How the data were processed

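The authors aligned poly(A) RNA reads with Bowtie and quantified them with RSEM on mm9, per the submitters' processing notes; the sources used here give neither versions nor the strand setting. Each deposited table gives, per gene, an expected count (unnormalized) and an FPKM value (scaled by the authors to length and library size). It lists genes above 0, and a missing gene was set to 0. Expected counts were rounded for the tests. A gene whose estimate was not whole within 0.005 in any library shares reads and is called uncertain. Of 16621 IDs 16579 matched a RefSeq table of GRCm38.p6, used for names and promoters.

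The fit used edgeR 4.0.16 (R 4.3.3) with TMM factors, filterByExpr, genotype as the sole term and 3 libraries. It had 1 residual and 7.72 prior degrees of freedom, and the adjustment was Benjamini-Hochberg. A check on simulated counts used no filter and required only that the median simulated fold changes be recovered. It therefore has no bearing on the calls of the filtered fit. The SE is the log2 fold change over the square root of F. Intervals are exact and cover counting error only; a count of 0 allows 3 counts, or 0.566 to 0.572 CPM. Alternatives included DESeq2 1.42.0 and limma 3.58.1.

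The 38 genes and the other lists were chosen with earlier results of these data known. Full values are given for genes past the threshold, the 8 largest and 6 smallest fold changes, and Brca1, Brca2, Fancd2, Atm, Atr, Chek1 and Chek2; for other lists, for genes past the threshold, or the 2 of highest level where none passed, and for Mki67. Genes outside this rule were named after their values were seen. A further gene of the lists is not reported here.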

Additional observations from a re-analysis of the deposited data

How the results depend on the processing

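The count of genes past the threshold stayed at 1, Topbp1, with DESeq2 size factors, filters of 10 counts in any library or a mean of 50 counts, edgeR's likelihood ratio test, limma-voom, DESeq2's Wald test and without genes that share reads. It was 0 in edgeR without a filter and on library totals and in limma on log2(FPKM + 1) and log2(FPKM + 0.1), and the cause was not tested. In these settings 7 and 9 of 38 and 4 and 4 of 36 genes were higher at an unadjusted p under 0.05. The share of all genes at that p was not computed there, so these counts have no background. The median log2 fold change was 0.22 over the 21 genes with a mean of at least 50 counts, a setting with fewer genes, and 0.26 to 0.47 with a DF508 library left out (0.26 without replicate 1). Among genes with 50 counts in any library, 7 of 27 were at least 1.5-fold above WT in both DF508 libraries. With a DF508 library left out, 35 to 36 of 38 were above WT and 12 to 17 at least 1.5-fold above. On TMM sizes 33 of 38 were above WT in both DF508 libraries and 11 at least 1.5-fold above, since Atm and Fanca dropped out. The share of all genes was not computed in these settings, so these counts have no background here. Xrcc3 turned sign, to 0.0015, 0.0075 and 0.0078, on library totals and both FPKM scales, and Atm to 0.030, 0.022 and 0.026. Without DF508 replicate 1 Xrcc3 was at 0.09, Fancf at 0.24 and Atm at 0.0024, and without replicate 2 at -0.19, -0.43 and -0.03, so the direction of these genes turned with the library left out. No paired analysis was possible because there is only 1 WT library. Leaving out a DF508 library leaves no residual degree of freedom and hence no test. The log2 values given for it are differences of TMM-scaled log2 CPM with a small count added. Depth limits the genes under 50 counts, whose counting intervals are wide.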

Other observations

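Targets of p53, which halts the cell cycle after DNA damage, mostly had lower fitted values in DF508. Below WT in both libraries were 5 of 9 (29.8% of all genes), and 4 had WT between them. Of 9 tested, 1 fell, none rose and 8 did not pass, against 0.9% of all genes lower and 0.489% higher. An unadjusted p under 0.05 with a lower level was found in 4, against 6.08% of all genes. These were Gadd45a, Cdkn1a, Mdm2 and Bax. The median log2 fold change of the list was -0.26. Gadd45a, a stress-induced inhibitor of division, had 21.5 CPM in WT and 10.1 and 9.53 CPM in DF508, 2.26-fold lower (edgeR adjusted p = 0.049), lower in 2 of 2 DF508 libraries. Cdkn1a, the inhibitor of cyclin-dependent kinases, had 220, 191 and 172 CPM, and did not pass (edgeR adjusted p = 0.255). Mdm2, which shares reads, had 145, 121 and 115 CPM (edgeR adjusted p = 0.213). Bax had 62.85, 49.8 and 43.1 CPM (edgeR adjusted p = 0.174). Ccng1, a cyclin and the most abundant of the list by CPM, had 444 CPM in WT, 471 CPM in DF508 replicate 1 and 353 CPM in replicate 2, so WT lay between them (edgeR adjusted p = 0.774). E2f1, which encodes a factor of the E2F family and shares reads, had 220.4 counts in WT and 187 and 199 counts in DF508 (edgeR adjusted p = 0.63), the only one of the 16 proliferation markers below WT in both DF508 libraries.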
